A study of Homo sapiens with 8 samples.

Results

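Transcripts of 10 genes of the interleukin-6 (IL-6) cytokine family were followed in A549 cells, an established epithelial line from a human lung adenocarcinoma. The genes were the ligands IL11, IL6, LIF and CLCF1, the receptor chains IL6R, IL11RA, LIFR, OSMR and IL6ST, and the feedback inhibitor SOCS3. They were found by gene symbol, and all 10 were present among the 19158 genes in the files. The comparison was between 4 wells left untreated, for which the labels name no vehicle, and 4 wells given 1 µM dexamethasone for 48 h. Both groups were labelled wild type and batch 1, and each well gave 1 library, numbered 1, 3, 4 or 5 in both groups. Dexamethasone is a synthetic steroid agonist of the glucocorticoid receptor. The genes were chosen with the comparison of these same libraries known, IL11 for its large fall, so their differences are given as a description, with no p-value.

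As background, IL-6 family cytokines share the signalling chain gp130, which IL6ST encodes. IL-6 and IL-11 first bind a private receptor (IL6R or IL11RA) and then engage gp130, whereas LIF signals through a pairing of gp130 with the LIF receptor. CLCF1 uses that pairing together with the receptor for ciliary neurotrophic factor (CNTFR). Oncostatin M can also use OSMR with gp130. Engaged receptors activate Janus kinases and the transcription factor STAT3, which in turn induces SOCS3, an inhibitor of the same receptors. In the acute-phase response, IL-6-type cytokines and glucocorticoids act together on liver genes such as the fibrinogens.

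Values are FPKM, which divide the fragments of a gene by its length and by the size of the library, so levels may be compared between genes. Steps between low values corresponded to 24980000 to 28660000 fragments per library. The glucocorticoid-response genes FKBP5 and TSC22D3 were higher in every treated library, at 87.3 to 166 and 91.8 to 111 FPKM against 3.28 to 7.30 and 4.48 to 7.07 FPKM in untreated libraries. The epithelial keratins KRT8 and KRT18 were at 957 to 2195 and 805 to 1270 FPKM, CDH1 was at 4.90 to 19.7 FPKM, and EPCAM stayed under 1 FPKM in all libraries. KRT19 fell from a mean of 156 to 54.7 FPKM. Of 5 immune markers, PTPRC, CD3E and MS4A1 were listed at 0 in all 8 libraries. CD14 was at 2.01 to 3.14 FPKM in untreated libraries and fell to between 1.19 and 1.56 FPKM, and CD68 fell from a mean of 4.03 to 2.05 FPKM. The immune list summed to 5.78 to 7.52 FPKM in untreated and 3.07 to 3.75 FPKM in treated libraries. Of 4 fibroblast markers, COL1A2 was listed at 0 throughout, COL1A1 fell from 2.03 to 0.367 FPKM, DCN was listed at 0 in untreated libraries and was at 0.178 to 0.355 FPKM in treated ones, and the list summed to 1.81 to 2.29 and 0.598 to 0.741 FPKM. The 3 endothelial markers summed to at most 0.176 FPKM. The part of these markers in the results was not tested. At least 0.5 FPKM in at least 4 libraries was required for testing; of 12161 such genes 3270 passed the threshold of a limma Benjamini-Hochberg adjusted p under 0.05. Changes were related to the GC content of the transcript, with a Spearman rho of -0.444 across genes, which are no replicates. When the genes were cut into 5 equal bins of GC content, the median log2 change was 0.32 in the lowest bin (29.2% to 40.5% GC) and -0.27 in the highest (58.2% to 76% GC). Untreated replicate 5 stood apart, with 10555 genes at 1 FPKM or more where the other 7 libraries had 11008 to 11378.

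After dexamethasone, the ligands IL11 and LIF fell, and the receptor chains IL6R, IL6ST, LIFR and OSMR rose. Of 9 members that passed the filter, 4 were past the threshold upward and 2 downward, against 12.3% and 14.6% of all genes tested. CLCF1, SOCS3 and IL11RA did not pass the threshold, and IL6 was too low to be tested. The groups did not overlap for 6 of the 9, against 31.5% of all genes tested. Nothing is read from these shares, because the members were chosen with this comparison known. In bulk RNA, fewer cells expressing a gene and less RNA per cell cannot be told apart.

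**Figure D1:**
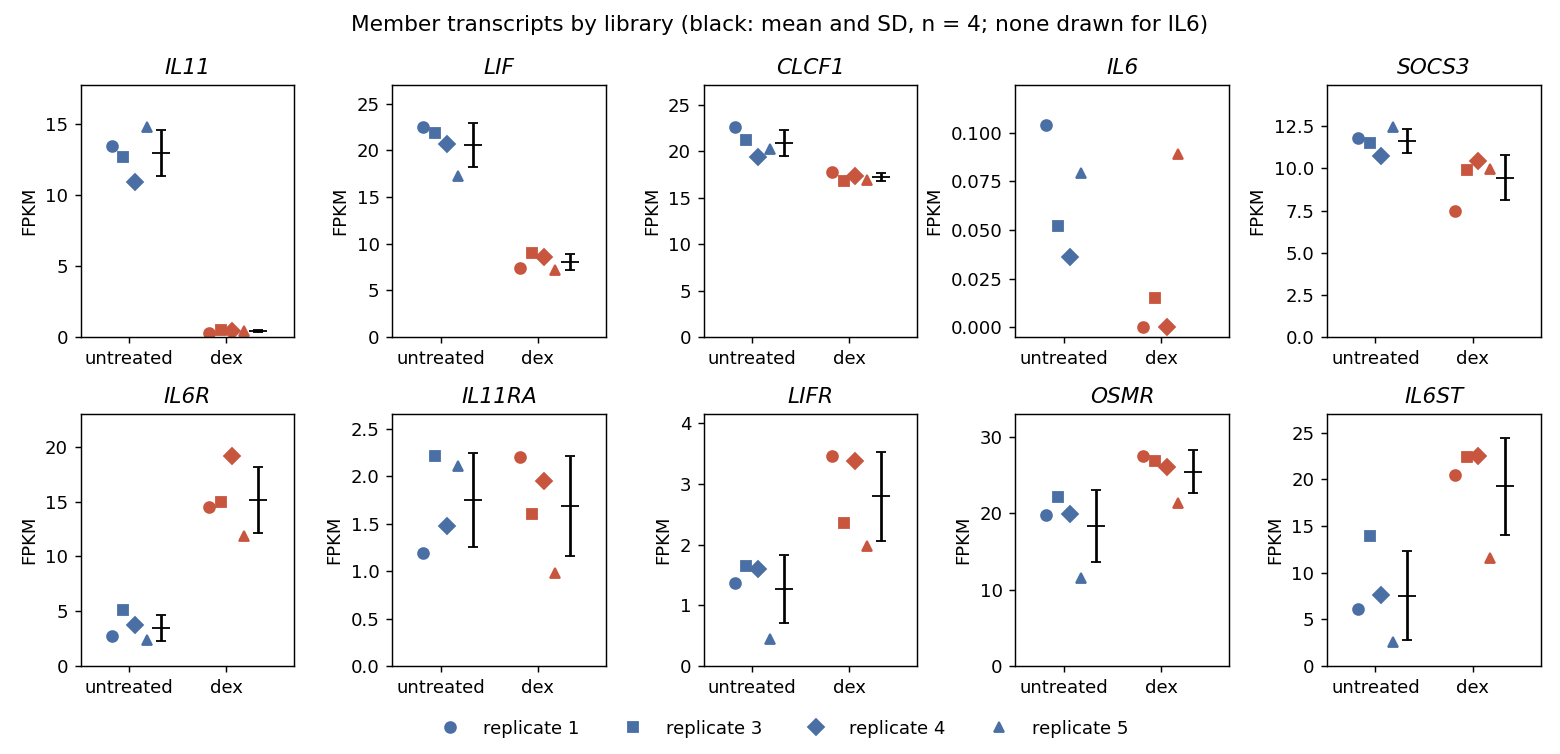
FPKM of each member (y axis, its own scale per panel) in untreated and dexamethasone (dex) libraries; symbols mark the replicate number, and black bars the mean and SD of 4 libraries, with none for IL6, which has values listed at 0. IL11 lay between 10.9 and 14.8 FPKM in untreated libraries and between 0.307 and 0.481 FPKM after dexamethasone, and untreated replicate 5 (triangle) was the lowest untreated library for IL6R, LIFR, OSMR and IL6ST.

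IL11 encodes interleukin-11, a secreted cytokine studied in epithelial repair and in fibrosis. The gene (ENSG00000095752) lies on chromosome 19, 55364389 to 55370463, minus strand, in GRCh38 as given with the values. It was at 13.5, 12.7, 10.9 and 14.8 FPKM in untreated libraries 1, 3, 4 and 5. After dexamethasone it was at 0.307, 0.481, 0.398 and 0.414 FPKM. All untreated libraries were high and all treated libraries low, with no overlap. Each treated value was under 0.5 FPKM, so IL11 passed the filter through the untreated libraries alone. The means of 13.0 ± 1.63 and 0.400 ± 0.0715 FPKM (SD, n = 4 each) differ 32.5-fold. The fitted log2 change was -3.32 (SE 0.167) on the log2(FPKM + 1) scale, which understates the change of genes that become this low. Among all genes in the files, the mean level of IL11 exceeded that of 76.9% in untreated cells and of 36.2% in treated cells.

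The bases before the IL11 start site are shown because IL11 had the largest fall of the members. Subunits of AP-1, a factor known to act at this promoter, also differed between the groups, some higher and others lower. A part of AP-1 in the fall of IL11 was not tested. The 250 bases come from RefSeq (GRCh38.p14, chr19:55370464-55370713, minus strand, 5′ to 3′), and capitals mark the match to the AP-1 motif TGANTCA.
IL11: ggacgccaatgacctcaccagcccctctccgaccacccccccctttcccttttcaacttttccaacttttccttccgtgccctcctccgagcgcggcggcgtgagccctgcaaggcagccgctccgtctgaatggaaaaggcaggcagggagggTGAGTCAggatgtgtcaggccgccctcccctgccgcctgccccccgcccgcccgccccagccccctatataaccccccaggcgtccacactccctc
The match begins at position -96, counting the start site as 0.

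RefSeq promoter windows of 300 bases (250 before the start site and 50 from it on) were found for 8 members, in 12 windows. None was found for LIF or CLCF1. The palindromic AP-1 motif TGANTCA was in 3 of the 12 windows, those of IL11, IL6R and OSMR, and in 7.7% of 35116 promoter windows of all genes. Its middle base was left free, and was G in IL11 and IL6R and T in OSMR. The matches of IL6R and OSMR began after the start site, at positions 37 and 3, unlike that of IL11. The hexamer AGAACA, which makes up one side of a glucocorticoid response element, was sought on both strands and was in 2 windows, of IL6R and LIFR, and in 14.8% of all windows. The palindromic STAT motif TTCNNNGAA was in 2 windows, both of LIFR, and in 7.7% of all windows. The AP-1 and hexamer matches are shown for comparison with 6 bases on either side and the motif in capitals.
IL11 AP-1 (chr19:55370547-55370565, minus strand): ggagggTGAGTCAggatgt
IL6R AP-1 (chr1:154405374-154405392, plus strand): ccgctcTGAGTCAtgtgcg
OSMR AP-1 (chr5:38846009-38846027, plus strand): cgcagcTGATTCAtagccc
IL6R hexamer (chr1:154405197-154405214, plus strand): gtccccTGTTCTccccgc
LIFR hexamer (chr5:38557464-38557481, minus strand): ccgaagAGAACAccatca
The AP-1 letters thus stood in the window of a member that fell and of 2 that rose. LIF, the other member that fell past the threshold, had no window to search. A match is a description of letters, not a sign that a factor binds there.

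LIF encodes leukaemia inhibitory factor, which signals through LIFR and gp130. The gene (ENSG00000128342) lies on chromosome 22, 30240447 to 30246851, minus strand. It was at 22.5, 21.8, 20.7 and 17.2 FPKM in untreated libraries 1, 3, 4 and 5, and at 7.37, 8.97, 8.55 and 7.21 FPKM after dexamethasone. Every treated library lay below every untreated one. The means were 20.6 ± 2.34 and 8.03 ± 0.869 FPKM (SD, n = 4 each), a 2.56-fold lower level, with a log2 change of -1.26 (SE 0.114).

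CLCF1 encodes cardiotrophin-like cytokine factor 1, a ligand of the receptor for ciliary neurotrophic factor. The gene (ENSG00000175505) lies on chromosome 11, 67364168 to 67374177, minus strand. It was at 22.6, 21.2, 19.4 and 20.2 FPKM in untreated libraries 1, 3, 4 and 5 and at 17.7, 16.8, 17.3 and 16.9 FPKM after dexamethasone. The groups did not overlap, but the difference was small, with a log2 change of -0.27 (SE 0.125) that did not pass the threshold. With each library's trend on GC content removed the value was -0.07.

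IL6, the family's founding cytokine (ENSG00000136244, chromosome 7, 22725884 to 22732002, plus strand), was close to undetected. It was at 0.104, 0.0521, 0.0364 and 0.0795 FPKM in untreated libraries 1, 3, 4 and 5. It was listed at 0 in dexamethasone replicates 1 and 4, and was at 0.0152 and 0.0893 FPKM in replicates 3 and 5. The groups overlapped, and no fold is given at this level.

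The 4 ligand transcripts summed to 51.1 to 58.7 FPKM in untreated libraries and 24.6 to 26.3 FPKM after dexamethasone. IL11 made up 23.9% ± 3.03 of that sum in untreated and 1.56% ± 0.266 in treated libraries (SD, n = 4 each). The share of LIF was 37.7% ± 3.34 and 31.2% ± 2.53. CLCF1 went from 38.3% ± 0.32 to 67.1% ± 2.68 of the sum, although its own level did not pass the threshold. After dexamethasone CLCF1 was thus the ligand with the highest transcript level in all 4 libraries, whereas in untreated libraries its range overlapped that of LIF.

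**Figure D2:**
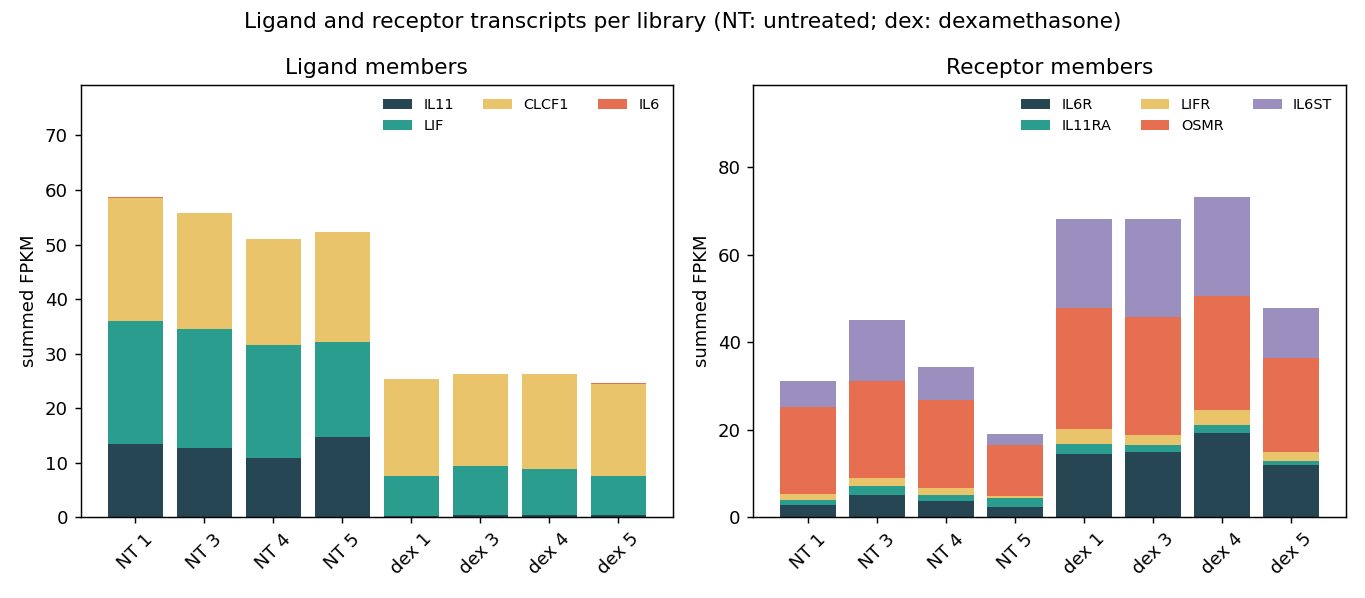
Summed FPKM (y axis) of the ligand members, left, and receptor members, right, in each untreated (NT) and dexamethasone (dex) library, with the parts of each bar showing single genes. The ligand sum is 24.6 to 26.3 FPKM in treated libraries against 51.1 to 58.7 FPKM untreated, and the receptor sum 47.8 to 73.1 FPKM against 19.0 to 45.1 FPKM.

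Among the receptor chains, IL6R differed most. It encodes the private receptor for IL-6 (ENSG00000160712, chromosome 1, 154405193 to 154469450, plus strand). It was at 2.77, 5.08, 3.71 and 2.36 FPKM in untreated libraries 1, 3, 4 and 5 and at 14.5, 14.9, 19.2 and 11.9 FPKM after dexamethasone. The lowest treated library was above the highest untreated one. The means were 3.48 ± 1.2 and 15.1 ± 3.03 FPKM (SD, n = 4 each), 4.35-fold apart, with a log2 change of 1.86 (SE 0.173). The value was 1.98 with the GC trend removed.

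IL11RA, the private receptor for IL-11 (ENSG00000137070, chromosome 9, 34650702 to 34661892, plus strand), showed no such difference. It was at 1.19, 2.22, 1.48 and 2.11 FPKM in untreated libraries 1, 3, 4 and 5 and at 2.20, 1.61, 1.96 and 0.983 FPKM after dexamethasone. The groups overlapped widely, and the log2 change was -0.05 (SE 0.19), turning to 0.07 when either library numbered 5 was left out, to 0.19 when both were, and to 0.12 with the GC trend removed. The ratio of IL6R to IL11RA transcripts was 1.12 to 2.51 in untreated and 6.59 to 12.1 in treated libraries.

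IL6ST, which encodes the shared chain gp130 (ENSG00000134352, chromosome 5, 55935095 to 55994993, minus strand), varied more between untreated wells than the other members with levels over 5 FPKM. It was at 6.05, 14.0, 7.59 and 2.54 FPKM in untreated libraries 1, 3, 4 and 5. After dexamethasone it was at 20.5, 22.4, 22.5 and 11.6 FPKM. Treated replicate 5 lay below untreated replicate 3, so the groups overlapped. The means were 7.54 ± 4.78 and 19.2 ± 5.20 FPKM (SD, n = 4 each), 2.55-fold apart, with a log2 change of 1.38 (SE 0.34). Without dexamethasone replicate 3 the value was 1.30 and no longer passed the threshold.

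LIFR, the receptor chain for LIF (ENSG00000113594, chromosome 5, 38474963 to 38608354, minus strand), was at 1.36, 1.66, 1.59 and 0.448 FPKM in untreated libraries 1, 3, 4 and 5. It was at 3.46, 2.36, 3.38 and 1.98 FPKM after dexamethasone. The groups did not overlap. The means were 1.27 ± 0.559 and 2.79 ± 0.740 FPKM (SD, n = 4 each), 2.21-fold apart, with a log2 change of 0.77 (SE 0.188).

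OSMR, a receptor chain for oncostatin M and interleukin-31 (ENSG00000145623, chromosome 5, 38845858 to 38945596, plus strand), had the highest level of the receptor chains in both groups. It was at 19.9, 22.2, 19.95 and 11.5 FPKM in untreated libraries 1, 3, 4 and 5 and at 27.5, 26.9, 26.1 and 21.4 FPKM after dexamethasone. Treated replicate 5 lay below untreated replicate 3. The means were 18.4 ± 4.70 and 25.5 ± 2.77 FPKM (SD, n = 4 each), 1.39-fold apart, with a log2 change of 0.47 (SE 0.139). The call was lost without untreated replicate 1 or 4, at 0.50 and 0.48, without dexamethasone replicate 1, 3 or 4, at 0.45, 0.45 and 0.47, and with no scaling between libraries, at 0.48.

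The GC trend and the libraries numbered 5 moved with the receptor results. The longest transcripts of IL6ST and LIFR have 36.5% and 37.1% GC, in the lowest bin, OSMR has 45.1% and IL6R 51.2%, whereas IL11, LIF and CLCF1 have 56.3%, 57.1% and 57.9%. With the GC trend removed, IL6ST was at a log2 change of 1.04 (SE 0.212), OSMR at 0.40 (SE 0.0853) and LIFR at 0.44 (SE 0.0771), the last against 0.77 before, and all 3 remained past the threshold. IL11 was at -3.13 and LIF at -1.07 in that fit. Without both libraries numbered 5, IL6ST was at 1.27, LIFR at 0.70, OSMR at 0.40, IL6R at 1.88, LIF at -1.25 and IL11 at -3.23, and these 6 passed the threshold.

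**Figure D3:**
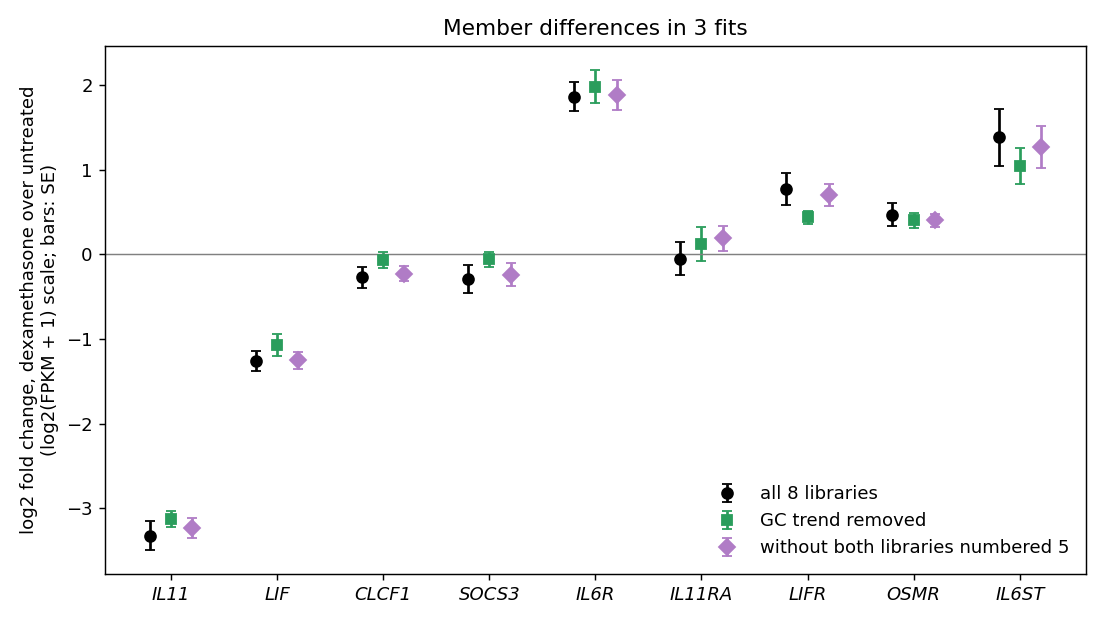
Fitted log2 change (y axis, dexamethasone over untreated on the log2(FPKM + 1) scale, bars are SE) of the 9 tested members in 3 fits: all 8 libraries, with the GC trend of each library removed, and without both libraries numbered 5. IL11, LIF, IL6R, IL6ST, LIFR and OSMR keep their sign in the 3 fits, while IL11RA goes from -0.05 to 0.12 and 0.19.

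The 5 receptor transcripts summed to 19.0 to 45.1 FPKM in untreated and 47.8 to 73.1 FPKM in treated libraries. Their sum over that of the ligands was 0.362 to 0.809 in untreated libraries and 1.94 to 2.78 in treated ones. IL6R went from 10.8% ± 1.5 to 23.6% ± 2.34 of the receptor sum (SD, n = 4 each), and OSMR from 57.9% ± 6.22 to 40.1% ± 3.74. IL6ST transcripts were 1.07 to 2.75 times those of IL6R in untreated libraries and 0.972 to 1.5 times in treated ones.

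SOCS3, the STAT3-induced feedback inhibitor (ENSG00000184557, chromosome 17, 78356778 to 78360077, minus strand), was at 11.8, 11.5, 10.8 and 12.5 FPKM in untreated libraries 1, 3, 4 and 5. It was at 7.46, 9.92, 10.4 and 9.94 FPKM after dexamethasone. The ranges met closely without overlapping, and the log2 change of -0.29 (SE 0.165) did not pass the threshold. It was -0.06 with the GC trend removed and -0.19 without dexamethasone replicate 1, the lowest treated library, or without untreated replicate 5, the highest untreated one.

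Ordered by level in untreated cells, the members ran CLCF1, LIF, OSMR, IL11, SOCS3, IL6ST, IL6R, IL11RA, LIFR and IL6, from 20.9 to 0.0679 FPKM. Of the 9 neighbouring pairs, 2 had ranges that did not overlap: IL6R lay above IL11RA, and LIFR above IL6. After dexamethasone the order was OSMR, IL6ST, CLCF1, IL6R, SOCS3, LIF, LIFR, IL11RA, IL11 and IL6. There, 4 neighbouring pairs were separated, with IL6R above SOCS3, LIF above LIFR, IL11RA above IL11, and IL11 above IL6. IL11 thus went from rank 4 to rank 9, and IL6R from rank 7 to rank 4.

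Among tested genes that overlap no other annotated gene and are no members, the transcripts whose pattern over the 8 libraries was most like that of IL11 were IFFO2, CRLF2, MAP1A, CYP24A1 and SEMA6B, with Pearson correlations of 0.998, 0.998, 0.997, 0.997 and 0.997 on the log2(FPKM + 1) scale. All 8 points share the split into 2 groups, and 640 of all tested genes had a correlation above 0.95, so the ranking among them rests on small differences. CRLF2, a receptor chain for the cytokine TSLP, was at 2.55, 2.34, 2.34 and 2.22 FPKM in untreated libraries 1, 3, 4 and 5. It was listed at 0 in 3 treated libraries and at 0.0231 FPKM in dexamethasone replicate 4. CYP24A1, the enzyme that inactivates vitamin D hormone, fell from 342 ± 11.3 to 75.3 ± 3.59 FPKM (SD, n = 4 each).

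The rest of the pathway was described from 9 lists with 70 genes, of which 68 were in the files and 55 passed the filter. Of the 55, 21 were higher and 7 lower past the same threshold, against 12.3% and 14.6% of all genes tested, with a median log2 change of 0.31 against 0.01 over all genes. The remaining 27 did not pass. The lists were chosen with earlier results of these data known, so nothing is read from these shares.

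Other ligands were scarce. OSM and CTF1 were under the filter, IL27 and IL31 were not analysed here, and CNTF had a log2 change of -0.00 (SE 0.123, limma adjusted p = 0.982). EBI3, the shared subunit of interleukins 27 and 35, fell from 1.6 ± 0.452 to 0.672 ± 0.0307 FPKM (SD, n = 4 each), that is -0.63 on the log2 scale (SE 0.163, limma adjusted p = 0.0187), which was -0.40 with the GC trend removed and lost its call, at -0.35, when both libraries numbered 5 were also left out. Among other receptor chains, CNTFR and IL31RA were under the filter. IL27RA was at 3.87, 3.85, 3.65 and 3.48 FPKM in untreated libraries 1, 3, 4 and 5 and at 1.68, 1.94, 1.74 and 2.21 FPKM after dexamethasone. It fell, with a log2 change of -0.72 (SE 0.123, limma adjusted p = 0.00221), unlike the 4 receptor members that rose.

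Several kinases and STAT factors were higher. Of 4 Janus kinases, 2 rose, none fell and the median log2 change was 0.14. JAK1, the main kinase bound to gp130, was at 52.2, 53.9, 57.0 and 32.9 FPKM in untreated libraries 1, 3, 4 and 5 and at 116, 114, 114 and 108 FPKM after dexamethasone. Its log2 change was 1.21 (SE 0.127, limma adjusted p = 0.000116). JAK2 had a log2 change of 0.54 (SE 0.129, limma adjusted p = 0.0125), which was 0.20 with the GC trend removed (limma adjusted p = 0.231). Of 7 STAT factors, 5 rose, none fell and the median was 0.50. STAT4 went from 2.42 ± 1.06 to 6.69 ± 1.69 FPKM (SD, n = 4 each), that is 1.19 on the log2 scale (SE 0.218, limma adjusted p = 0.00334). STAT3 itself, the family's main effector, was at 81.6 ± 5.66 and 96.8 ± 7.54 FPKM, with a log2 change of 0.23 (SE 0.126, limma adjusted p = 0.196). With the GC trend removed STAT3 was at 0.34 and past the threshold (limma adjusted p = 0.0082).

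Most inhibitors and adaptors did not pass the threshold. Of 13 tested negative regulators, 1 was higher and 1 lower, with a median of 0.11. CISH, also listed, was under the filter. It was at 0.567 ± 0.194 FPKM in untreated and 0.0691 ± 0.0275 FPKM in treated libraries (SD, n = 4 each), without overlap. SOCS2, an inhibitor best known from growth hormone signalling, was at 5.52, 3.06, 5.74 and 1.57 FPKM in untreated libraries 1, 3, 4 and 5 and at 0.885, 0.663, 0.686 and 0.465 FPKM after dexamethasone. It fell, with a log2 change of -1.47 (SE 0.244, limma adjusted p = 0.00194). PIAS1, an inhibitor of STAT signalling, rose by 0.76 (SE 0.177, limma adjusted p = 0.0117). Of 7 RAS-ERK adaptors, 1 was higher and none lower, with a median of 0.18. The adaptor SHC1 went from 62.5 ± 3.87 to 98.2 ± 7.81 FPKM (log2 change 0.63, SE 0.165, limma adjusted p = 0.0194), but did not pass without untreated replicate 1, 3 or 4 (0.62, 0.56 and 0.56). The phosphatase PTPN11 had a log2 change of 0.66 (SE 0.309, limma adjusted p = 0.143), which was 0.32 without untreated replicate 5. PTPN11 passed the threshold without both libraries numbered 5 (0.47, limma adjusted p = 0.0114), with the GC trend removed as well (0.31, limma adjusted p = 0.026), and with the replicate block without or with the GC trend removed (limma adjusted p = 0.0124 and 0.0267).

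Of the 2 proteases that shed IL-6 family receptors, ADAM17, the inducible sheddase, had a log2 change of 0.01 (SE 0.145, limma adjusted p = 0.97). ADAM10 had 0.90 (SE 0.248, limma adjusted p = 0.0249), or 0.58 with the GC trend removed. Its call was lost with no scaling between libraries (0.90) and without untreated replicate 1 (0.86) or dexamethasone replicate 1 or 4 (0.76 and 0.87).

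Among tested genes known to respond to STAT3 in liver or immune cells, more were higher than lower. Of 20 genes listed, 14 were tested, and 9 rose and 1 fell, with a median log2 change of 1.17. Among all genes tested 12.3% were higher and 14.6% lower. Nothing is read from these shares, because the lists were chosen with earlier results of these data known. SERPINA3, among those that rose, was at 0.089 to 0.522 FPKM in untreated libraries. It passed the filter only because the treated libraries were counted. The 4 that did not pass were IRF1 (-0.71, limma adjusted p = 0.0551, groups not overlapping), TIMP1 (-0.42), BCL3 (-0.31) and BCL2L1 (0.09). HP, LBP, ICAM1, HAMP, A2M and CRP were under the filter. Of these, the groups did not overlap for LBP (means 0.0288 and 0.598 FPKM, higher) and ICAM1 (0.341 and 0.122 FPKM, lower). FGA, the fibrinogen alpha chain, was at 6.28, 6.20, 5.48 and 4.92 FPKM in untreated libraries 1, 3, 4 and 5 and at 82.8, 86.6, 76.9 and 64.1 FPKM after dexamethasone (log2 change 3.54, SE 0.119, limma adjusted p = 7.55e-08). FGB, FGG and the protease inhibitor SERPINA3 rose by 3.12, 3.15 and 3.49 on the log2(FPKM + 1) scale, which understates changes from low levels. Their means differed 17.9-fold, 18.9-fold and 47.7-fold, against 13.6-fold for FGA. The transcriptional repressor BCL6 went from 3.22 ± 0.309 to 13.1 ± 0.796 FPKM, that is 1.73 on the log2 scale (SE 0.107, limma adjusted p = 4.75e-06). CEBPB and MCL1 rose by 1.56 and 1.25. PIM1 fell by 0.48, a call that was lost without dexamethasone replicate 1, 3 or 4 (-0.42, -0.49 and -0.48), and -0.29 with the GC trend removed. Several of these genes, such as the fibrinogens and CEBPB, are also known glucocorticoid-response genes, and the part of either pathway was not tested.

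AP-1 subunits moved in both directions, with 2 of the 5 tested in their list higher and 3 lower. JUNB, an AP-1 subunit counted with the STAT3-responsive genes, was also higher (log2 change 0.61, SE 0.196, limma adjusted p = 0.0471). FOSL1 was at 28.1, 26.5, 28.2 and 26.8 FPKM in untreated libraries 1, 3, 4 and 5 and at 7.36, 7.01, 7.99 and 8.53 FPKM after dexamethasone, without overlap. Its log2 change was -1.71 (SE 0.135, limma adjusted p = 1.92e-05). FOS rose from 1.05 ± 0.342 to 3.78 ± 0.340 FPKM, that is 1.21 on the log2 scale (SE 0.169, limma adjusted p = 0.000687), and FOSL2 rose by 0.74. JUN and JUND fell by 0.48 and 0.61. JUN was at -0.29 with the GC trend removed, where its call was lost. The JUN call was kept with the replicate block and the GC trend removed (-0.29, limma adjusted p = 0.0238). It was also kept with the GC trend removed and both libraries numbered 5 left out (-0.35, limma adjusted p = 0.00528). JUND was at -0.27 with the GC trend removed. The call of JUND was lost with no filter on low values (-0.61) and without untreated replicate 1 (-0.62) or dexamethasone replicate 1, 3 or 4 (-0.50, -0.61 and -0.59).

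**Figure D4:**
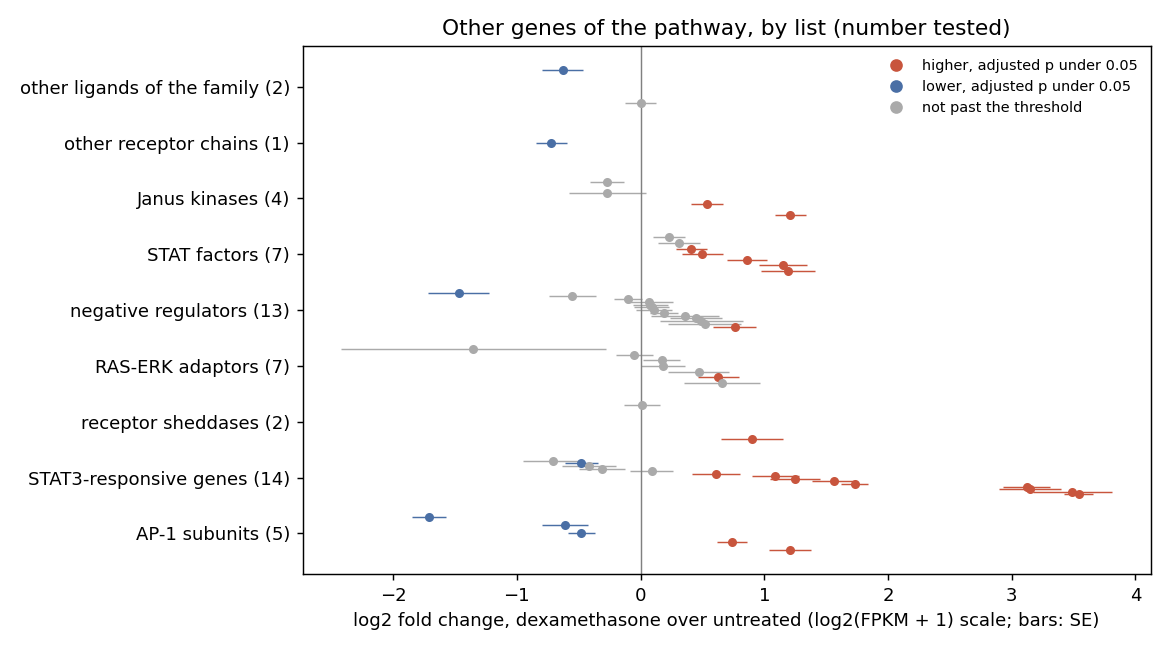
Fitted log2 change (x axis, dexamethasone over untreated on the log2(FPKM + 1) scale, bars are SE) of the 55 tested pathway genes, 1 point per gene, grouped by list; red points were higher and blue points lower past the threshold, grey points did not pass. The STAT factors all lie to the right of 0, between 0.23 and 1.19, and the STAT3-responsive genes range from -0.71 to 3.54.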

How the data were processed

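The values in the deposited tables were read as FPKM, although their names call them counts: they are not whole numbers, their sums differed between libraries (338989 to 373855), and values times the longest transcript length summed to 1014000000 to 1106000000. Per the submitters' processing notes, reads were checked with FastQC 0.11.9, trimmed with Cutadapt 3.4, aligned to GRCh38 with STAR 2.7.9a, counted with featureCounts (Subread 2.0.3), and the authors used DESeq2 1.32.0. The annotation, the use of strand and the step that gave FPKM are not given in the sources used here.

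Genes with 1 transcript in GENCODE v44 have low FPKM values that come in steps, which gave the fragments per library. At the best fit 45.2% to 50% of those values came to a whole fragment number within 0.1, so counts were not recovered. Chance gives 20% at a library size fixed beforehand. The size was chosen here for the largest such share, and the chance level of that largest share was not computed. Printed levels are deposited FPKM. For tests, libraries were brought to 1 scale by TMM (trims of 0.3 and 0.05, factors 0.822 to 1.08), and log2(FPKM + 1) was fitted on the group alone with limma 3.58.1 in R 4.3.3 (trend and robust, two-sided). The pseudocount was 1. Adjustment ran over all genes with at least 0.5 FPKM in at least 4 libraries (3 where a library was left out). The procedure was also run on simulated data, with noise drawn independently per gene and library. Those data held no GC trend and no deviation shared by the genes of a library, so they cannot speak to either feature.

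The members, lists and settings were chosen with earlier results of these data known. Named genes were the members, FKBP5 and TSC22D3, the 2 genes with the smallest p in each list (1 is not reported here), and the 5 genes most like IL11 that overlap no other annotated gene. Others (STAT3, FGB, FGG, SERPINA3, CEBPB, MCL1, PIM1, FOSL2, JUN and JUND) were named after their values were seen. So were JUNB, IRF1, TIMP1, BCL3, BCL2L1, LBP, ICAM1 and CISH. For these no values under other settings are given, and they were not checked for libraries standing apart. GC content came from the longest GENCODE v44 transcript, found for 99.5% of genes, and its trend was removed per library with a spline of 4 degrees of freedom. Coordinates are as given in the files, and strands are from GENCODE v44. CLCF1, IL11RA and LIFR overlap another gene on the same strand, and IL6, LIF, CLCF1, IL6R, IL6ST, IL11RA, LIFR and OSMR one on the opposite strand. IL6R and IL6ST have annotated pseudogenes. Their values are uncertain where shared reads were split.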

Additional observations from a re-analysis of the deposited data

Results flagged for a closer look

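For each named gene, except those stated above as not checked, the library farthest from the others in its group of 4 was compared with the range of that group. In 88 groups, 8 had a library standing apart, where chance flags about 1 in 20.

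Among the members, SOCS3 was at 7.46 FPKM in dexamethasone replicate 1 and at 9.92 to 10.4 FPKM in the other 3 treated libraries. IL6 was at 0.0893 FPKM in dexamethasone replicate 5, where the others were listed at 0 to 0.0152 FPKM.

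Among the other genes, CNTF was at 0.275 FPKM in dexamethasone replicate 5 against 0.527 to 0.540 FPKM, and MAP1A at 0.329 FPKM in the same library against 0.359 to 0.365 FPKM. CRLF2 was at 0.0231 FPKM in dexamethasone replicate 4 and listed at 0 in the other 3. JUN was at 12.4 FPKM in dexamethasone replicate 3 against 10.94 to 10.97 FPKM. In untreated replicate 5, SEMA6B was at 9.82 FPKM against 6.48 to 7.04 FPKM, and STAT3 at 73.2 FPKM against 83.7 to 85.5 FPKM.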

How the results depend on the processing

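Counts of calls and log2 changes were recomputed under 20 other settings, except that EBI3 and CNTF gave no value with the filter at 1 FPKM. Of these settings, 1 was chosen after seeing the data and removed the GC trend and left out both libraries numbered 5. The orders of levels were recomputed only on TMM-scaled FPKM and with each library left out. Under them IL11 ranged from -4.72 (pseudocount 0.1) to -3.09, LIF from -1.36 to -1.07 and IL6R from 1.75 to 2.12 on the log2 scale, each past the threshold throughout. LIFR ranged from 0.43 to 1.18 and kept its call, IL6ST from 0.99 to 1.67 with 19 of 20 calls kept, and OSMR from 0.35 to 0.53 with 14 of 20 kept. These calls are given as a description, because the members were chosen with this comparison known.

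The 3270 genes called became 5750 with a replicate block, 5351 with the replicate block and the GC trend removed, 5513 without both libraries numbered 5, and 5236 with the GC trend removed as well. The 7 lower pathway genes became 12 with the block, 11 with the block and the GC trend removed, and 13 without both libraries numbered 5. Leaving out 1 library at a time gave 2362 to 3905 genes called, 2 to 4 members higher, 2 members lower, 17 to 22 pathway genes higher and 5 to 10 lower. It gave 2 to 4 separated neighbours in the untreated order of levels (4 without replicate 5) and 4 to 7 in the treated order (7 without replicate 5). ADAM17 reversed to -0.29 with the block and the GC trend removed and to -0.32 with the GC trend removed and both libraries numbered 5 left out. The cause of these differences was not tested.

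Deviations of libraries with the same number correlated at 0.292, 0.066, 0.314 and 0.713 for replicates 1, 3, 4 and 5, so the numbers did not pair the wells by the limit of 0.1 for every pair, and not every library correlated best with its own number. Under the block CLCF1 (-0.27) passed the threshold. Low values limit what can be said of IL6, at 0.104 FPKM or less.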
